A study of Caenorhabditis elegans with 2 samples.

Results

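The promoters of 8 genes of Caenorhabditis elegans were examined for peaks of XND-1 in a chromatin immunoprecipitation (ChIP-seq) experiment. The genes were taken by name: spo-11, dsb-1, dsb-2, dsb-3, him-17, him-5 and rec-1, which act in the formation of meiotic DNA double-strand breaks, and xnd-1 itself. They are 8 of the 19973 protein-coding genes annotated on the nuclear chromosomes, and all 8 lie on autosomes. Chromatin came from whole young adult hermaphrodites of the transgenic strain QP0661, collected 50 h after synchronization from starved L1 larvae. The worms carried XND-1 with a GFP-FLAG tag at its C terminus, and an antibody against GFP was used for the precipitation. The series held 1 group of 2 biological replicates, so no treatment or genotype was compared. Whether untagged XND-1 remained in the strain is not stated by the labels. Peaks of XND-1 and sites that precipitate in any ChIP cannot be told apart, since worms without the tag were not analysed here.

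Peaks were read from the authors' lists on ce11 (WBcel235): 22772 peaks in replicate 1, 22364 in replicate 2, 24467 in the list of both replicates pooled, and 1841 that the authors kept by the irreproducible discovery rate (IDR), a measure of the agreement between replicates. The first 3 lists are loose and hold background regions by design. Each peak has a summit, its highest point, and a score (signalValue) from the authors' peak caller with no unit. The lowest score in the IDR-thresholded list was 65.6 and the median 128. The IDR-thresholded list carries the pooled scores. Pooled scores are on a different scale from replicate scores, so the pooled are not compared with the replicate scores. Scores of replicates 1 and 2 are compared unscaled, so their means, SDs and ratios also hold any difference in scale between the replicates. The peak lists carry no read counts, so sequencing depth is unknown. A gene is called bound here when its promoter window, from 500 bp before to 200 bp after any annotated 5′ end of a protein-coding transcript, held an IDR-thresholded summit.

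Meiotic recombination starts when the topoisomerase-like enzyme SPO-11 cuts chromosomal DNA. In worms SPO-11 depends on partner proteins, among them the paralogs DSB-1 and DSB-2, relatives of yeast Rec114, and DSB-3, a relative of yeast Mei4. Chromatin-associated proteins set where and when breaks form: HIM-17, a THAP-domain protein, HIM-5 and its paralog REC-1, and XND-1, an autosome-enriched protein needed for normal crossing over on the X chromosome. Germline expression of him-5 has been reported to depend on xnd-1. The loci therefore address whether a peak of XND-1 lay at the promoters of the genes of its own pathway.

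The 8 genes split into 3 with an IDR-thresholded promoter peak and 5 without one. An IDR-thresholded summit lay in the promoter windows of dsb-2, spo-11 and rec-1, 3 of the 8 genes, where 6.68% of all protein-coding genes had one and 7.68% of autosomal genes. The promoters of dsb-1, him-17 and dsb-3 had only peaks below the IDR threshold. That of him-5 had no summit in its window in any list, although an IDR-thresholded peak lay just beyond the 3′ end of the gene. The locus of xnd-1 had no peak at all. The same 3 genes were called from the 1841 highest peaks of either replicate alone, which called 6.67% of protein-coding genes in replicate 1 and 6.37% in replicate 2. With the 3682 highest pooled peaks, 2 times as many as passed IDR, dsb-1 and him-17 were called too, 5 of 8 genes beside 10.6% of all. The whole pooled list placed a summit in the window of 6 of the 8 genes and of 27.7% of all protein-coding genes. Summits of both replicates within 100 bp of each other were found in the windows of 5 of the 8 genes, against 13.7% of all protein-coding genes. These 8 genes were chosen with earlier results of these data known, so the counts describe them and carry no test.

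**Figure D1:**
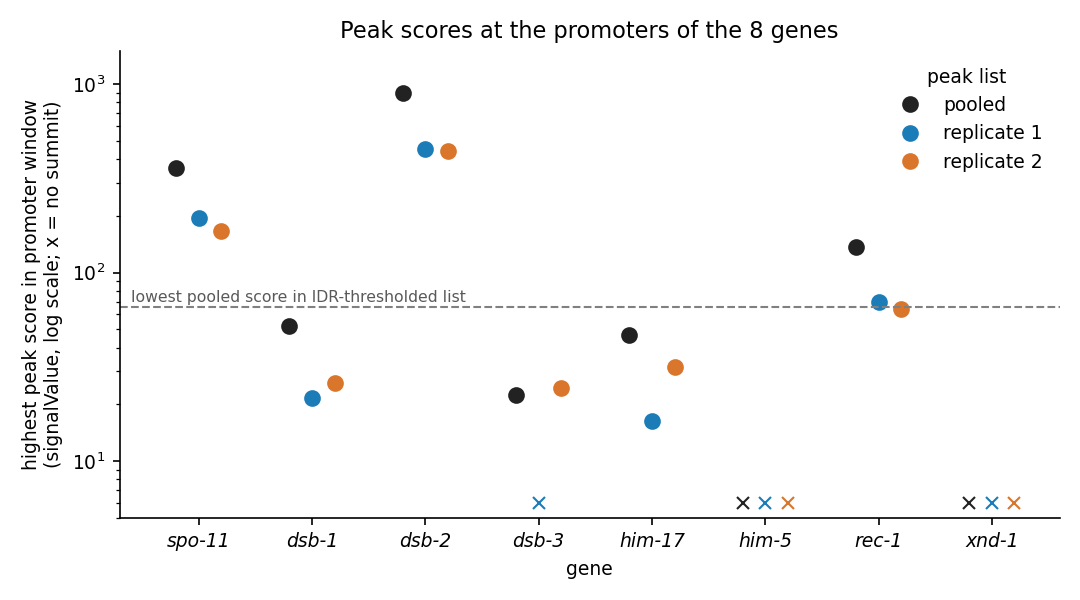
Highest peak score (signalValue, log scale) in the promoter window of each of the 8 genes, with 1 point each for the pooled list and for replicates 1 and 2; a cross marks a window with no summit, and the dashed line is the lowest pooled score in the IDR-thresholded list, 65.6. The line applies to the pooled points only. The pooled scores of dsb-2 (894), spo-11 (360) and rec-1 (136) lie above the line, those of dsb-1, him-17 and dsb-3 below it, and him-5 and xnd-1 have crosses only.

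**Figure D2:**
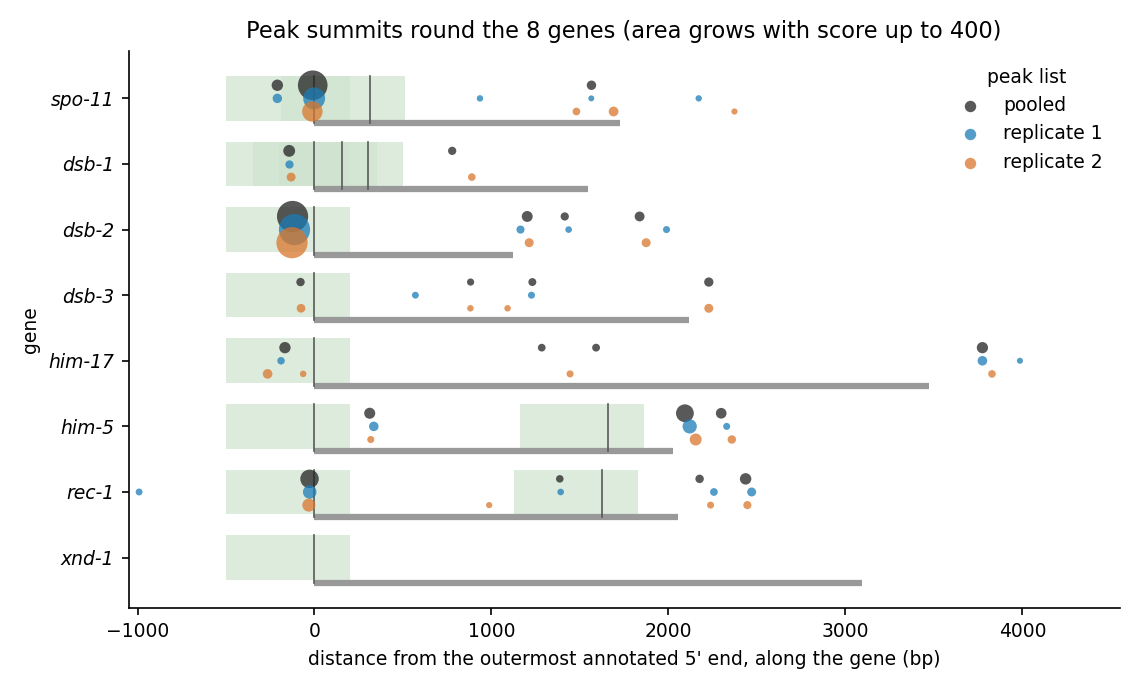
Positions of all summits from 1000 bp before to 1000 bp after each gene, in bp from its outermost annotated 5′ end; grey bars are the genes, thin vertical lines the annotated 5′ ends, and green boxes the promoter windows. Points are coloured by list and their area grows with the score up to a limit. The largest points lie at the 5′ ends of spo-11, dsb-2 and rec-1 and past the 3′ end of him-5, and the row of xnd-1 is empty.

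The gene of the break enzyme itself, spo-11, was bound directly at its start. The gene lies on chromosome IV, 11123133 to 11124862, on the minus strand, with annotated 5′ ends at 11124862 and 11124549. Its peak had a score of 360 in the pooled and IDR-thresholded lists, rank 309 of 1841. The score was 194 in replicate 1 and 167 in replicate 2, a mean of 181 ± 19.1 (SD, n = 2). The summits lay 10 bp upstream of the outermost 5′ end in the pooled list, 2 bp upstream in replicate 1 and 12 bp upstream in replicate 2. The replicates thus placed it within 10 bp of each other. Of the 1334 bound genes, 35 (2.62%) had their highest summit within 10 bp of a 5′ end, and the median summit lay 198.5 bp upstream. A shoulder 210 bp upstream had a score of 47.3 in the pooled list and 30.3 in replicate 1, and replicate 2 had no summit there. No other protein-coding promoter window held the main summit. The nearest gene upstream, swsn-4, an ATPase subunit of the SWI/SNF remodeller on the opposite strand, starts 1161 bp away and had no summit in its window in any of the 4 lists. The 101 bases directly upstream of the 5′ end (WBcel235, chrIV:11124863-11124963, minus strand) are shown because the summit lies in them; the capitals mark 9 bases centred on it.

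spo-11 upstream: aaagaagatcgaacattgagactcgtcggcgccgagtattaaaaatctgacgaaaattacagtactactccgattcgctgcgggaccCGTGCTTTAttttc

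Among the genes of the SPO-11 partners, dsb-2 had the strongest peak of the 8 genes and its paralog dsb-1 a weak one. The dsb-2 gene (chromosome II, 14411095 to 14412218, plus strand) had a score of 894 in the pooled and IDR-thresholded lists, rank 65 of 1841, or 6.99 times the median IDR-thresholded score. The score was 453 in replicate 1 and 440.5 in replicate 2 (447 ± 9.04, SD, n = 2). The summit lay 124 bp upstream of the 5′ end in the pooled list, 113 bp in replicate 1 and 127 bp in replicate 2, in the intergenic stretch of 252 bp behind F26H11.4. Its score was reached by 57 of the 1334 bound genes, dsb-2 included, and 0.285% of protein-coding genes had a pooled promoter score at least as high. In contrast, dsb-1 (chromosome IV, 12408925 to 12410470, plus strand) scored 51.8 in the pooled list, 21.5 in replicate 1 and 26.0 in replicate 2 (23.7 ± 3.17, SD, n = 2). Its summits lay 143 bp, 146 bp and 132 bp upstream of the outermost of its 3 annotated 5′ ends in the same order of lists. The dsb-1 peak was thus at a repeatable place in both replicates and at 0.789 times the lowest IDR-thresholded score. It carried the same pooled −log10 q as the IDR-thresholded peaks, 3.78, a value that 1141 pooled peaks outside the IDR-thresholded list share. A share of 8.18% of protein-coding genes had a pooled promoter score at least as high as that of dsb-1. The gene lies 234 bp behind gex-3, a WAVE complex gene on the same strand, whose own promoter was bound with a score of 172 at 121 bp upstream of its 5′ end. The peak of gex-3, 4.61 kb from the first 5′ end of dsb-1, was the IDR-thresholded summit nearest to it.

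The windows of 101 bases centred on the pooled summits of the paralogs are shown to compare the strong with the weak peak; they lie at chrII:14410921-14411021 and chrIV:12408732-12408832 (WBcel235, plus strand), and neither overlaps an annotated exon. The capitals mark the longest run that both share, 10 bases.

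dsb-2 summit: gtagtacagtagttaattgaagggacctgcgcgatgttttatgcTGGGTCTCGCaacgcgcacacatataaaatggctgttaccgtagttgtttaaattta

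dsb-1 summit: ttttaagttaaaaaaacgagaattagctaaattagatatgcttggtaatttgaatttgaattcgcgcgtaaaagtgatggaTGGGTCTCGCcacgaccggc

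The run TGGGTCTCGC covers the summit base of dsb-2, which is base 51 of the window, as it spans bases 45 to 54. In dsb-1 it spans bases 82 to 91, starting 31 bp past the summit. On either strand the run was present in 54 of the 1841 windows of 101 bases at IDR-thresholded summits (2.93%) and in 68 of the 22626 at the other pooled summits (0.301%). It was present in 0.961% of the promoter windows of all protein-coding genes, taken at the outermost 5′ end. In such windows of the 1334 bound genes, dsb-2 included, it was present in 49 (3.67%). Promoter windows are longer than 101 bases, so these shares cannot be set against those at summits. The run was picked from these 2 windows after they were seen, and a match is no evidence of a binding site. Among the windows of 6 members compared in 15 pairs, the longest shared run was 6 to 10 bases in the other 14 pairs, with 10 bases reached also by dsb-1 and dsb-3.

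The promoter of dsb-3 had the weakest peak of the 6 genes with any. The gene lies on chromosome IV, 7757510 to 7759627, on the minus strand. A summit 79 bp upstream of its 5′ end scored 22.4 in the pooled list, rank 9047 of 24467, with a −log10 q of 0.393. Replicate 2 had a summit at 76 bp upstream with a score of 24.5, and replicate 1 had none in the window. The promoter peak of dsb-3 was therefore seen in 1 replicate, and 16.7% of protein-coding genes had a pooled promoter score at least as high. In replicate 1 the nearest summit was 570 bp downstream of the 5′ end, in an intron of dsb-3, with a score of 12.4. The nearest IDR-thresholded summit lay 4.90 kb upstream, in an intron of C46A5.1, with a score of 552.

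The chromatin factor gene him-17 also fell below the threshold. It lies on chromosome V, 13176711 to 13180185, on the plus strand. Its pooled peak scored 46.7, 0.711 times the lowest IDR-thresholded score, with the summit 167 bp upstream of the 5′ end and a −log10 q of 3.78. Replicate 1 gave 16.4 at 189 bp upstream and replicate 2 gave 31.6 at 265 bp upstream (24.0 ± 10.8, SD, n = 2). A second summit of replicate 2 lay 64 bp upstream with a score of 10.5. The highest summits of the 2 replicates were 76 bp apart, the widest distance among the 5 genes with a summit in both. The highest score in replicate 1 was 0.518 times that in replicate 2. A share of 8.91% of genes had a pooled promoter score at least as high. The nearest IDR-thresholded summit lay 17.1 kb downstream, in the promoter of sun-1, whose SUN-domain protein links chromosomes to the nuclear envelope during pairing, with a score of 433.

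At him-5, every summit within 1000 bp of the gene lay downstream of the outermost 5′ end, and none fell into the promoter windows. The gene lies on chromosome V, 14090426 to 14092454, on the plus strand, and has a second annotated 5′ end at 14092087, inside the gene. A summit in the annotated 5′ UTR lay 312 bp downstream of the outermost 5′ end in the pooled list, 335 bp in replicate 1 and 318 bp in replicate 2. Its score was 44.1 in the pooled list, 30.9 in replicate 1 and 13.8 in replicate 2. It fell into the window of the opposite-strand neighbour D1086.5, which starts 66 bp from him-5. The stronger peak of the locus was IDR-thresholded, with a score of 126, rank 938 of 1841, and 78.1 in replicate 1 and 52.7 in replicate 2. Its summit, at 14092519, lay past the annotated 3′ end of him-5, 432 bp downstream of the internal 5′ end. This pooled summit was 53 bp before the snoRNA gene smy-3. It was 273 bp upstream of the next protein-coding gene, D1086.3, whose promoter window holds it. In replicate 1 the summit was 246 bp upstream of D1086.3, before smy-3, and in replicate 2 it was 212 bp upstream, inside smy-3. With the window widened to 1000 bp upstream and 500 bp downstream, this peak was counted for him-5 and 4 of the 8 genes were bound, beside 8.5% of all protein-coding genes. The 101 bases centred on it (WBcel235, chrV:14092469-14092569, plus strand) are shown because the call for him-5 turns on this peak; the capitals mark 9 bases centred on the summit.

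him-5 3′ summit: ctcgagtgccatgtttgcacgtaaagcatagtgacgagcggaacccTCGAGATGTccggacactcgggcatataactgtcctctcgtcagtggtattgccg

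The paralog rec-1 was bound at a promoter it shares. The gene lies on chromosome I, 717890 to 719944, on the minus strand, and its 5′ end overlaps that of pif-1, a DNA helicase gene on the plus strand, by 16 bp. The peak scored 136 in the pooled and IDR-thresholded lists, rank 856 of 1841, with 69.8 in replicate 1 and 64.4 in replicate 2 (67.1 ± 3.87, SD, n = 2). The summits lay 28 bp, 27 bp and 32 bp upstream of the outermost 5′ end of rec-1 in the pooled list and replicates 1 and 2. The pooled summit lay 43 bp downstream of the 5′ end of pif-1, in its 5′ UTR. A peak at this place counts for both genes, and the lists cannot assign it to either. A share of 3.52% of genes had a pooled promoter score at least as high. A second IDR-thresholded peak of the neighbourhood, with a score of 263, lay 123 bp upstream of the downstream neighbour hgap-1, past the 3′ end of rec-1. The internal 5′ end of rec-1 had a pooled summit 241 bp upstream with a score of 16.6, which was present in replicate 1 at 11.2.

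No list held a peak at xnd-1, the gene of the tagged protein. The labels do not say clearly whether the tagged copy sits at this locus or elsewhere, and what that does to peaks here was not tested. The gene lies on chromosome III, 5604460 to 5607556, on the plus strand. The nearest summit to its 5′ end lay 6.09 kb upstream in the pooled list, with a score of 40.5, in a coding exon of wdr-37. It lay 6.03 kb upstream in replicate 1 and 6.22 kb upstream in replicate 2. Of all protein-coding genes, 17.9% had a nearest pooled summit at least as far, and the median distance was 1335 bp. The stretch with no pooled summit measured 29.5 kb, from 5598368 to 5627872, and held 5 protein-coding genes in full: madf-11, xnd-1, C05D2.8, bas-1 and basl-1. It measured 39.0 kb in replicate 1 and 28.5 kb in replicate 2. Among the 24461 intervals between neighbouring pooled summits, 371 (1.52%) were at least as long, 231 of them on autosomes, and the median interval was 1.66 kb. An interval picked because it holds a given gene tends to be long, so the 1.52% is not a share of genes. The nearest IDR-thresholded summit lay 49.3 kb upstream, in the promoters of nmad-1 and hach-1, with a score of 88.6.

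The order of the genes by pooled score was dsb-2, spo-11, rec-1, dsb-1, him-17 and dsb-3. Replicate 1 gave the same order for the genes it had, whereas replicate 2 put him-17 (31.6) before dsb-1 (26.0) with dsb-3 (24.5) close behind. The 3 bound genes kept their places in both replicates, while the replicates ordered dsb-1 and him-17 differently. For the bound genes the score of replicate 1 over that of replicate 2 was 1.16 for spo-11, 1.03 for dsb-2 and 1.085 for rec-1. Over 1320 of the 1334 bound genes, those with a summit in both replicates, the median of this ratio was 0.969 and the 5th to 95th percentiles were 0.616 to 1.58. The median distance between the replicates' summits was 18 bp over those genes, and 10 bp for spo-11, 14 bp for dsb-2 and 5 bp for rec-1.

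**Figure D3:**
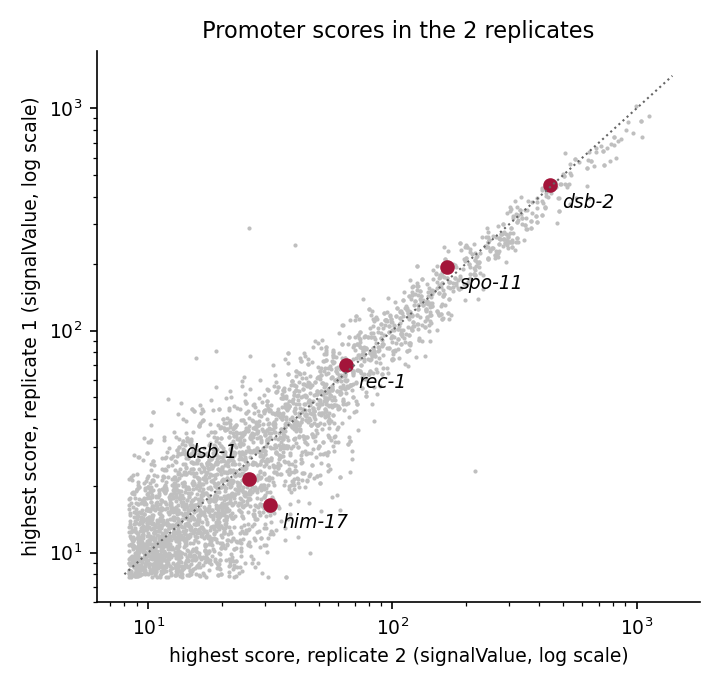
Highest promoter peak score in replicate 1 against replicate 2 (signalValue, both axes log) for every protein-coding gene with a summit in both windows (grey) and the 5 of the 8 genes among them (red); the dotted line marks equal scores. The points of dsb-2, spo-11 and rec-1 lie close to the line, dsb-1 (21.5 against 26.0) slightly below it and him-17 (16.4 against 31.6) further below, where the grey cloud is wide.

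**Figure D4:**
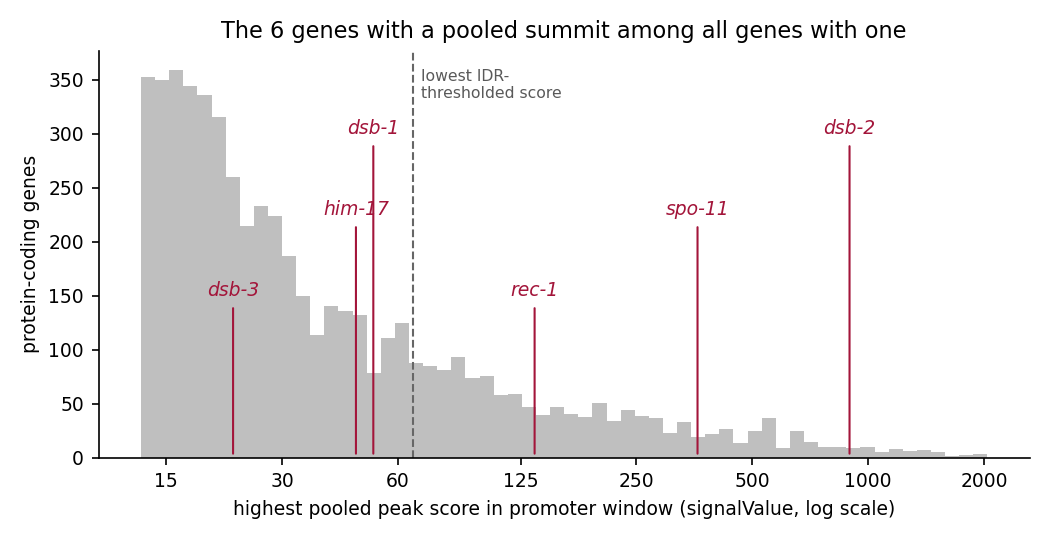
Number of protein-coding genes by their highest pooled peak score in the promoter window (signalValue, log scale), for genes with a pooled summit there; the red lines mark the 6 of the 8 genes with one, and the dashed line the lowest IDR-thresholded score, 65.6. The lines of dsb-2 (894) and spo-11 (360) stand in the thin right tail, and that of dsb-3 (22.4) stands in the bulk.

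Bound promoters were found in 3 of 4 further lists of related meiotic genes, and the counts moved with the window and the peak list. Crossover designation had 5 of 8 genes bound, break regulation and first processing of breaks 9 of 22, and pairing 3 of 8. The break regulation list is broad and also holds cep-1, mes-4, dpy-28 and lin-35. Of these lin-35 was bound, with a score of 90.3, and the others were not. The HORMA axis genes, whose proteins form the meiotic chromosome axis, had 0 of 4 bound. With the window of 200 bp upstream to 100 bp downstream, crossover designation had 2 calls, break regulation 5 and pairing 0. That window called 3.29% of all protein-coding genes. With the 3682 highest pooled peaks, 1 HORMA gene was called and pairing had 5 calls, beside 10.6% of all protein-coding genes. All 42 genes are autosomal, and 17 were bound (40.5%), beside 3 of the 8 genes of the break set (37.5%) and 7.68% of autosomal protein-coding genes. In crossover designation the highest scores were at cosa-1 (1146), a cyclin-like crossover marker, the RING-finger genes zhp-3 (487) and zhp-2 (274), and the MutS family gene msh-5 (322), while zhp-4 had no summit in any list. In break regulation chk-2, the kinase that licenses break formation, had 531, the checkpoint kinase gene atm-1 had 177, the chromodomain gene mrg-1 148 and him-19 138. Of the nuclease complex that trims breaks, mre-11 (71.6) and nbs-1 (103) were bound and rad-50 had no summit in its window in any list. The recombinase gene rad-51 had a pooled score of 44.9, and the window of brc-1, an E3 ligase gene, held no summit. In pairing the scores were 433 at sun-1, 276 at zim-1, a zinc-finger gene of pairing centres, and 120 at zyg-12, the partner of SUN-1. The HORMA genes him-3, htp-1, htp-2 and htp-3 had pooled scores of 23.5, 13.4, 43.2 and 20.7. Among these lists only cosa-1 exceeded dsb-2. The median pooled score of the members with a summit was 93.8 for the 6 break genes, 274 for 7 crossover designation genes, 92.4 for 6 pairing genes, 73.4 for 16 genes of break regulation and 22.1 for 4 HORMA genes. Median scores leave out genes with no summit, and no test between lists was made.

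**Figure D5:**
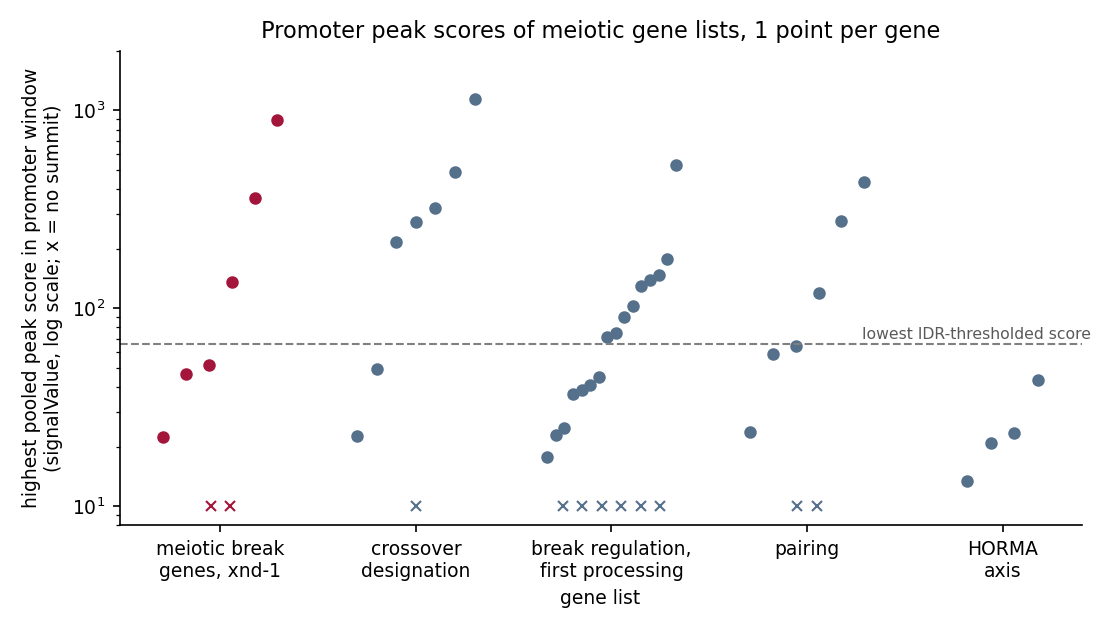
Highest pooled peak score (signalValue, log scale) in the promoter window, 1 point per gene, for the 7 break genes and xnd-1 (red) and 4 lists of related meiotic genes (blue); crosses are genes with no pooled summit, and the dashed line is the lowest IDR-thresholded score. Every list but HORMA axis has points on both sides of the line, and all 4 HORMA genes lie below it.

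Sequence composition was read at 7 summits: the pooled promoter summits of 6 genes and the 3′ peak of him-5, whose promoter had none. It varied among them, but it also varied over all IDR-thresholded summits, so the spread is not particular to these genes. The GC content of the 101 bases centred on the summit was 41.6% at dsb-2, 40.6% at spo-11 and 42.6% at rec-1, beside a median of 41.6% over all IDR-thresholded summits and 39.6% over the other pooled summits. It was 54.5% at the 3′ peak of him-5 and 51.5% at him-17, above the 75th percentile of the IDR-thresholded summits, 47.5%, and 31.7% at dsb-3, below the 25th percentile, 36.6%. The weak peak of dsb-1, at 37.6%, lay between those percentiles, as did the 3 bound genes. Words were searched on either strand, first in the promoter window of each gene's outermost 5′ end. There the E2F-like word TTCCCGC was found at dsb-1 only, and in 6.98% of all promoters. The word TTTGAA, the core of the CHR element bound by the DREAM complex, was found at all 8 genes and in 88.9% of all promoters. TATAAA was found at 5 of the 8 genes and in 62.7% of promoters, and GAGAGA at 2 of 8 and in 36.8%. TTTCAG, the worm 3′ splice consensus, was found at 7 of 8 genes and in 78.8% of promoters, while AGATAA, which resembles sites of the gut transcription factor ELT-2, was found at 3 of 8 genes and in 39.5% of promoters. None of these words was in the printed windows of spo-11 and him-5, whereas TATAAA was in that of dsb-2 and TTTGAA in that of dsb-1. These words do not overlap TGGGTCTCGC in the printed windows.

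The genes most like dsb-2 and rec-1 in score were found by the summed absolute difference of log2 scores over the pooled and both replicate lists, among 3382 genes with a summit in all 3. For dsb-2 they were psr-1 (summed difference 0.064), with scores of 910.2 pooled, 455 in replicate 1 and 451 in replicate 2, and C16A11.2 and fbxc-44 (0.084 each), which have the same values, 891, 440.3 and 452, and so share a peak. For rec-1 the closest was pif-1, at 0, because it has the same peak. The next were ivph-3 (0.080) with scores of 139, 69.7 and 66.4, and F33E11.2 (0.090) with 132, 67.4 and 64.2. The likeness is of height only, over 2 replicates that are also in the pooled list.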

How the data were processed

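XND-1 peaks of 2 biological replicates were taken as deposited on ce11. Per the labels and the deposited file descriptions, peaks were called against a control alignment, for each replicate and for both pooled, and an IDR-thresholded list was made from them. The aligner, peak caller and IDR limit are not given in the sources used here. The deposited signalValue is a score given by the authors' caller with no unit. It was used within a list or, unscaled, between the 2 replicates. The q values were deposited as −log10 q. No list holds read counts, so depth and the precision it gives are unknown.

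Gene models were from WBcel235, annotation release 115, and sequences were read from the RefSeq genome of that build. Each summit was assigned to every protein-coding promoter window that held it, from 500 bp before to 200 bp after any annotated 5′ end, and the highest score was kept. Many annotated worm 5′ ends are trans-splice sites, so transcription may start further upstream. The ce10 lists were used for nothing reported here. No p-values were computed. The assignment was tested on simulated peaks. The members, the 4 related lists and the named genes were chosen with earlier results of these data known. Named were all members, genes sharing a summit with or lying next to a member, up to 4 bound genes with the highest score per related list, unc-119, and the 3 genes most like the highest- and lowest-scoring bound members. In the related lists zhp-4, rad-50, rad-51, brc-1, mre-11 and nbs-1 were named after their values were seen, as was the shared run of 10 bases. The same holds for cep-1, mes-4, dpy-28 and lin-35. Alternatives were other windows and 5′ end rules, stricter and looser lists, and each replicate alone. Tables were computed with pandas 2.3.3 and numpy 2.4.6 under Python 3.11.15, and plots drawn with matplotlib 3.10.9.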

Additional observations from a re-analysis of the deposited data

How the results depend on the processing

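The calls for dsb-2, spo-11 and rec-1 held under all 8 alternatives, and 3 of the 64 calls over members and alternatives differed. They were him-5, called with the window of 1000 bp and 500 bp, and dsb-1 and him-17, called with the 3682 highest pooled peaks, where 5 of the 8 genes were bound. The share of all protein-coding genes bound was 3.29% with the window of 200 bp upstream to 100 bp downstream, 3.69% with the 920 highest IDR-thresholded peaks and 10.6% with the 3682 pooled peaks. The narrow window left 7 of the 42 related genes bound; the cause was not tested. The list of 920 peaks cut break regulation to 5 bound genes. Leaving out each replicate in turn gave 3 members in both cases, a share of 6.37% to 6.67% and 15 to 19 related genes. Without replicate 1 the pairing list had 5 bound genes, and dsb-1 and him-17 changed places. No paired analysis was possible because the series holds 1 group. The lists cannot show a weak peak as absent, since the limit set by depth is unknown.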

Other observations

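Among the genes on either side of each of the 8, gex-3, exl-1, D1086.3, pif-1 and hgap-1 were bound and the others were not. Of all protein-coding genes 6.68% were bound, and 7.68% of autosomal ones. The peak of pif-1 is that of rec-1, and the peak of D1086.3 is the 3′ peak of him-5. The gene after dsb-2 on the opposite strand, exl-1, was bound with a score of 82.9 at 460 bp upstream of its 5′ end, and its replicate scores were 41.7 and 44.1. Past the 3′ end of spo-11, enpl-1, which encodes an endoplasmic reticulum chaperone, had a pooled score of 50.3, below the IDR-thresholded list. Of the genes beside dsb-3, C46A5.4 had a pooled summit of 29.0 and C46A5.6 had none. Beside him-17, cni-1 had 46.0 and noca-1 had 24.0. The gene unc-119, a common marker of worm transgenes, was not bound. Its highest pooled summit in a promoter window scored 27.5 and lay 320 bp upstream of the outermost 5′ end. Outside the windows, pooled summits scored 47.1 at 531 bp upstream of that 5′ end and 48.3 at 2722 bp downstream of it. In replicate 2 the highest summit in a window scored 24.6, 28 bp downstream of an internal 5′ end. Another summit of replicate 2 lay 319 bp upstream of the outermost 5′ end with 18.7, and the summit of replicate 1 lay 432 bp upstream with 12.3.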
